A study of Homo sapiens with 12 samples.

Results

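In human HEK293T cells, 222 transcripts reached a minimum level in RNA-seq and carried few ribosome footprints for that level. They were chosen from the wild-type (WT) libraries as the genes with a mean mRNA level of at least 5 CPM (a gene's count over its library's total count, times 1000000) and a mean footprint level of at most 0.1 times that value, with symbols that start with GAS5, ZFAS1, SNHG, ZNF or PCDH left out. They made up 2.04% of the 10874 genes at that mRNA level with the same symbols left out, called the expressed genes here, and the count tables list 27011 genes in all. Because the WT footprint and mRNA values chose these transcripts, their low WT ratio is a description and was not tested. HEK293T is an embryonic kidney line that carries the SV40 large T antigen. The study compared 4EHP-null cells, GIGYF1/2-null cells and WT cells of this line, all without treatment and collected 24 h after plating. Each genotype had 2 RNA-seq libraries and 2 Ribo-seq libraries, which sequence the mRNA fragments that ribosomes protect from nuclease. The labels name 1 4EHP-null and 1 GIGYF1/2-null line and do not say how many clones each stands for.

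A spliced and exported mRNA is normally read by several ribosomes at a time, so its footprints follow its abundance. Transcripts that stay in the nucleus, long non-coding RNAs and small RNAs processed from introns are read little or not at all, and a coding mRNA can also be kept from ribosomes by its upstream sequence or by repressors. 4EHP (gene EIF4E2) is a cap-binding protein that does not recruit the initiation machinery, and GIGYF1 and GIGYF2 are the scaffold proteins that bring it to mRNAs marked for silencing and decay.

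Among the 222, the highest mRNA level per kilobase was that of the microRNA 1244 locus, whose sequence is shown because 4 of the 222 symbols stand for copies of it. RefSeq (build GRCh38.p14) gives the mature sequence below for 3 copies, MIR1244-1 at chr2:231713368-231713393, MIR1244-2 at chr5:118974640-118974665 and MIR1244-4 at chr12:12112006-12112031, all on the plus strand. Capitals mark the seed, bases 2 to 8, through which a microRNA pairs with its targets.
hsa-miR-1244: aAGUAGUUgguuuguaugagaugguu
The counted feature was 328 bases wide, against a hairpin of 85 bases and a mature form of 26 bases, and RNA-seq of this kind does not measure the mature microRNA. MIR1244-1 lies within the span of PTMA, the gene of prothymosin alpha, and MIR1244-2, MIR1244-3 and MIR1244-4 lie within its pseudogenes PTMAP2, PTMAP4 and PTMAP9 (RefSeq GRCh38.p14). All 4 symbols had the same count in every one of the 12 libraries, so their reads cannot be told apart. Each had 164 and 161 CPM of mRNA in 4EHP-null cells, 189 and 180.3 CPM in GIGYF1/2-null cells and 176 and 165 CPM in WT cells. The footprint counts were 0 and 0 in 4EHP-null cells, 4 and 9 in GIGYF1/2-null cells and 4 and 0 in WT cells. The mRNA levels of the 3 genotypes lay close together and no comparison was called.

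Library totals ran from 26143118 to 38175701 counts in RNA-seq and from 6536493 to 10816080 in Ribo-seq. With copies of identical counts taken once, 218 transcripts remained, and they held 1.01% to 1.09% of RNA-seq counts and 0.0529% to 0.0716% of Ribo-seq counts. A count of 0 allows a level of up to 0.0786 to 0.115 CPM in RNA-seq and 0.277 to 0.459 CPM in Ribo-seq (3 counts per library, counting error only). All 12 listed HEK293 markers were detected in all 12 libraries, and none of 10 leukocyte markers reached 5 CPM in WT RNA-seq, with RNA-seq sums of 9.67 to 11.7 CPM, although CD68 had a mean of 5.62 CPM of footprints in WT cells. EIF4E2 had 51.7 and 46.9 CPM of mRNA in 4EHP-null cells, against 120.1 and 119.9 CPM in WT cells. GIGYF1 had 22.7 and 26.5 CPM in GIGYF1/2-null cells, against 40.2 and 39.7 CPM in WT cells, while GIGYF2 had 97.9 and 83.3 CPM in GIGYF1/2-null cells, against 79.3 and 64.4 CPM in WT cells. GIGYF2 mRNA was thus not lower in the libraries labelled GIGYF1/2-null. In footprints, EIF4E2 had 16.4 and 12.1 CPM in 4EHP-null cells, against 37.7 and 33.4 CPM in WT cells. GIGYF1 had 1.68 and 2.87 CPM of footprints in GIGYF1/2-null cells, against 8.61 and 6.69 CPM in WT cells. GIGYF2 had 80.8 and 54.0 CPM of footprints in GIGYF1/2-null cells, against 90.0 and 63.6 CPM in WT cells, and was not called. One library stood apart: RNA-seq replicate 2 of 4EHP-null cells had 444 CPM from 28 listed structured small RNAs, against 18.4 to 53.2 CPM in the other RNA-seq libraries.

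Most of the 222 transcripts were protein-coding mRNAs, but non-coding classes took a larger share than among the expressed genes. RefSeq types matched 218 of the 222 symbols and 99.2% of all genes in the tables. Protein-coding genes numbered 169, which was 76.1% of the set, against 94.9% of the expressed genes. Long non-coding RNAs numbered 29 of 347 expressed (8.36% of that class), pseudogenes 9 of 123 (7.32%) and small RNAs 11 of 29 (37.9%), against 1.64% of expressed protein-coding genes. Of the 11 small RNAs, 6 had the same counts as another in every library, and with such copies taken once 7 of 23 remained (30.4%). The small RNAs were 6 microRNA loci and 5 small nucleolar RNAs (snoRNAs), which guide chemical modification of ribosomal RNA. Another 4 symbols, among them MIR4697HG, were left without a type. RefSeq types TUG1 as protein-coding, although it is best known as a long non-coding RNA.

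Within the set, which the rule cut at a ratio of 0.1, the depth of the footprint deficit differed by class. The median WT footprint to mRNA ratio was 0.0657 for the protein-coding transcripts and 0.0415 for the long non-coding RNAs. It was 0.0175 for the pseudogenes and 0.0017 for the small RNAs. Over the expressed genes of these classes the medians were 0.666, 0.474, 1.01 and 0.599, and 0.663 over all expressed genes. The order within the set is therefore not that of the classes as a whole. Over the whole set the median was 0.0602. The ratio was above 0.05 for 129 transcripts, from 0.02 to 0.05 for 37 and above 0 and up to 0.02 for 33. Another 23 had no footprint count in either WT library. A further 65 transcripts had fewer than 10 WT footprint counts, so that 88 in all had ratios set by few counts. In all 6 Ribo-seq libraries 8 transcripts had no count: WDR38, PMCH (the precursor of melanin-concentrating hormone), FCF1P2, C1orf216, MIR4697HG, PKI55, MIR7705 and NOXO1. The set was otherwise ordinary in size, with a median counted width of 3457 bases, against 3438 bases over the expressed genes. Its WT mRNA level had a median of 21.3 CPM and a range from 5.03 to 599 CPM, against a median of 41.2 CPM over the expressed genes.

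**Figure D1:**
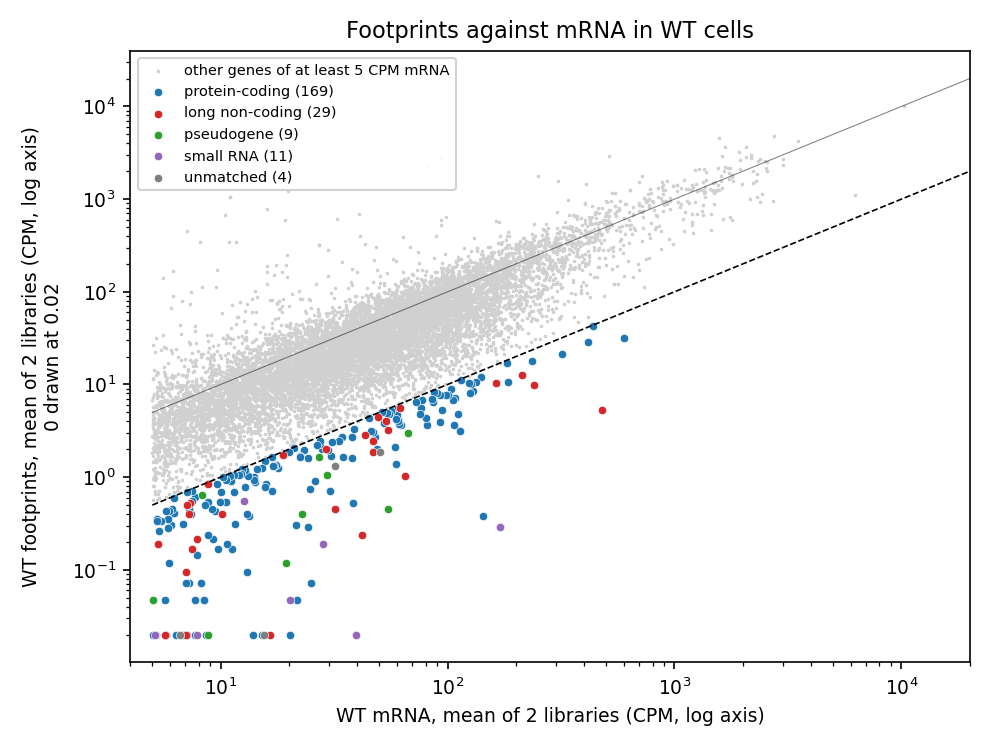
Mean footprint level against mean mRNA level in WT cells, both in CPM on log axes, for the expressed genes (grey) and the 222 transcripts coloured by RefSeq type. The dashed line is a ratio of 0.1 and the solid line a ratio of 1; transcripts with no footprint count are drawn at 0.02 CPM. The coding transcripts crowd below the dashed line, with a median ratio of 0.0657, while the small RNAs lie at a median of 0.0017.

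Several of the highest mRNA levels among the 222 were those of coding mRNAs with known products. IRAK1, a kinase of interleukin-1 and Toll-like receptor signalling, had 567 and 629.9 CPM of mRNA and 34.3 and 29.8 CPM of footprints in the WT libraries. EI24, an endoplasmic reticulum protein, had 437 and 441 CPM of mRNA and 38.7 and 47.4 CPM of footprints. EIF4EBP2, a repressor that holds the cap-binding factor eIF4E, had 421 and 414 CPM of mRNA and 29.4 and 28.2 CPM of footprints. SZRD1, UHMK1 (a kinase of the splicing factor SF1) and TMEM183A had mean WT mRNA levels of 319, 236 and 183 CPM with ratios of 0.0672, 0.0761 and 0.0942. A deeper deficit was that of SYNC, which encodes the intermediate filament protein syncoilin. SYNC had 144 and 141 CPM of mRNA and 0.287 and 0.471 CPM of footprints, a ratio of 0.00266, and RefSeq GRCh38.p14 shows it overlapping RBBP4. Per kilobase of counted width, the mean WT mRNA level was 520 CPM for each MIR1244 copy, 330 CPM for SNORD86, 179 CPM for EI24, 168 CPM for IRAK1, 89.5 CPM for NORAD and 55.4 CPM for EIF4EBP2.

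The abundant long non-coding RNAs included cytoplasmic and nuclear ones. NORAD, a cytoplasmic RNA that binds Pumilio proteins, had 493 and 463 CPM of mRNA and 5.60 and 4.90 CPM of footprints in the WT libraries. Its ratio of 0.011 was lower than that of WAC-AS1 (0.0415), TUG1 (0.0578), TSIX (0.0589), FGD5-AS1 (0.0642), OIP5-AS1 (0.0763) and NEAT1 (0.0911), the scaffold of nuclear paraspeckles. TSIX overlaps XIST on the other strand, and since no source used here gives the strand setting of the counting, its reads cannot be told apart from those of its partner. Of 11 expressed genes on a list of nuclear long non-coding RNAs, 3 were in the set (NEAT1, TSIX and TUG1), and of 19 on a list of other characterised ones, 4 were (NORAD, WAC-AS1, FGD5-AS1 and OIP5-AS1). Of 5 expressed microRNA host genes, 2 were in the set (MIR600HG and MIR4697HG). Over all expressed long non-coding RNAs by RefSeq type, 8.36% were in the set. Only 1.64% of all expressed protein-coding genes were in the set, so a 0 from a short list is not read as an absence. The set held 0 of 38 expressed mRNAs known to detain introns, whose median ratio was 0.787. It held 0 of 23 known to be repressed by upstream open reading frames, whose median ratio was 0.365. It also held 0 of 33 RNA surveillance and nuclear retention factors, 0 of 3 expressed replication-dependent histone genes and 0 of 1 expressed structured small RNA. The 3 histone genes had a median ratio of 64.2. All 73 listed histone genes summed to 101 to 236 CPM in RNA-seq and 60841 to 92386 CPM in Ribo-seq. The 28 listed structured small RNAs summed to 18.4 to 444 CPM in RNA-seq and 2058 to 4124 CPM in Ribo-seq. How differences in the RNAs that each assay captures bear on the ratios was not tested.

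Some of the transcripts lay inside another gene. By RefSeq spans in GRCh38.p14, with read-through genes left out, 26 of the 218 matched transcripts (11.9%) lay wholly within another gene, against 2.73% of the matched expressed genes. The nested share differed by type. In the set and among the expressed genes it was 4.73% and 1.97% for coding transcripts and 13.8% and 13.8% for long non-coding RNAs. It was 44.4% and 14.6% for pseudogenes and 90.9% and 93.1% for small RNAs. Over all types, the share in the set was 35.2% (19 of 54) at ratios of 0.02 or less. It was 3.1% (4 of 129) at ratios above 0.05. The 26 nested transcripts included 10 of the 11 small RNAs, copies counted separately. Among them were SNORA105B within HSPD1, SNORD86 within NOP56, SNORA100 within HNRNPU and SNORA86 within ITGB1, all hosts that encode abundant proteins. SNORD86 had 24.95 and 31.8 CPM of mRNA and 0.287 and 0.0942 CPM of footprints in WT cells. Among coding transcripts, RSC1A1 lay within DDI2, TMEM140 within CYREN, MSMP within RGP1 and NOXO1 within TBL3, and their ratios were 0.0137, 0.0236, 0.00875 and 0. Any overlap with another gene was common everywhere, at 63.8% of the matched transcripts and 56.1% of the matched expressed genes. The part that reads of the surrounding gene play in these values was not tested.

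At the edges of the rule the choice is narrow. PDE4A, ELK3 and EI24 were just inside, with ratios of 0.0993, 0.0992 and 0.0981, and KCNC1, HIPK2 and HAGLR were just outside, at 0.1002, 0.1003 and 0.1003. At the mRNA level, PVRIG2P, NOXO1 and MIR7705 were just inside with 5.03, 5.03 and 5.14 CPM, and CAPN12, RAPGEFL1 and SNORD36A were just outside with 4.99, 4.96 and 4.96 CPM.

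The footprint deficit was also present in both knockout lines, whose libraries the rule did not use. The median ratio of the set was 0.0511 in 4EHP-null cells, 0.0599 in GIGYF1/2-null cells and 0.0602 in WT cells, against 0.617, 0.649 and 0.663 over the expressed genes. The ratio was at most 0.1 for 203 of the 222 transcripts in 4EHP-null cells and for 188 in GIGYF1/2-null cells. Of the expressed genes, 2.92% had such a ratio in 4EHP-null cells and 2.33% in GIGYF1/2-null cells. Among the 222, the ratio was above 0.2 for 1 in 4EHP-null cells and for 2 in GIGYF1/2-null cells. A test of footprints against mRNA within the knockout libraries (edgeR, adjusted p under 0.05) called 48.7% of all genes tested lower in footprints in 4EHP-null cells and 51% in GIGYF1/2-null cells. It called all 222 transcripts, but 107 of them had too few footprints to pass the filter on low counts in Ribo-seq alone and entered through their RNA-seq counts, so nothing is read from that number. Applied to each knockout on its own, the rule chose 312 genes in 4EHP-null cells, of which 197 were in the WT set (63.1% of that list and 88.7% of the WT set). It chose 259 genes in GIGYF1/2-null cells, of which 184 were in the WT set (71.0% and 82.9%), and 176 transcripts met it in all 3 genotypes.

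**Figure D2:**
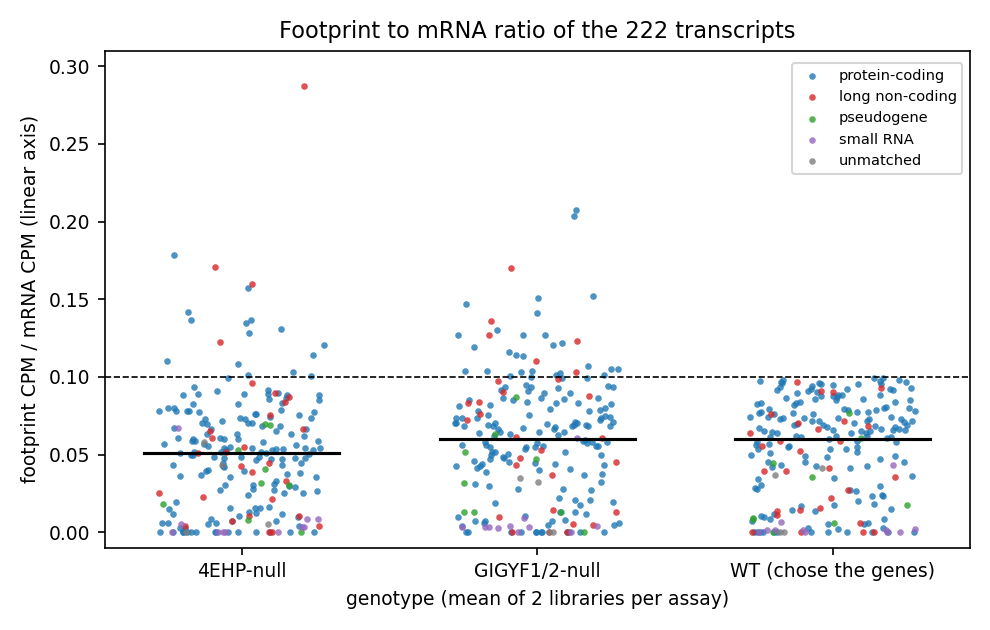
Footprint CPM over mRNA CPM (linear axis) of each of the 222 transcripts in 4EHP-null, GIGYF1/2-null and WT cells, from the mean of 2 libraries per assay, coloured by RefSeq type. Black bars are medians (0.0511, 0.0599 and 0.0602) and the dashed line is 0.1. The WT values are bounded by the rule, and in the knockouts 3 points lie above 0.2.

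Several of the highest ratios in the knockouts rested on few footprints. LOC100288162, a long non-coding RNA within the pseudogene PKD1P3, had 1.99 and 2.05 CPM of footprints in 4EHP-null cells, 0.480 and 0.924 CPM in GIGYF1/2-null cells and 0.430 and 0.565 CPM in WT cells. Both 4EHP-null libraries were above all others, at 13 and 15 counts and a ratio of 0.287, but the footprint change against WT missed the threshold, at a log2 change of 1.96 (SE 0.49; adjusted p = 0.0536). LOC100288162 passed the filter on low counts only with the 4EHP-null libraries, where it was high, so this change is not free of the filter. SLC4A5, a sodium bicarbonate cotransporter, had 2.29 and 3.96 CPM of footprints in 4EHP-null cells, 5.16 and 5.18 CPM in GIGYF1/2-null cells and 2.44 and 1.51 CPM in WT cells. Its ratio was 0.207 in GIGYF1/2-null cells, from 43 and 56 counts, where both libraries were above the rest, and its footprint change against WT also missed the threshold, at 1.40 (SE 0.33; adjusted p = 0.0534). Low WT footprints chose both transcripts, and high knockout ratios are why they are named. Neither change against WT is free of this choice. PTP4A3, a phosphatase, had a ratio of 0.203 in GIGYF1/2-null cells from 13 and 12 footprint counts. DOK4, an adaptor protein, had a ratio of 0.179 in 4EHP-null cells, from 13 and 25 counts.

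In 4EHP-null cells against WT, mRNA rose for 10 of the 222 transcripts and fell for 22 (edgeR quasi-likelihood test, Benjamini-Hochberg adjusted p under 0.05 over all genes tested). Of all genes tested, 6.47% rose and 6.63% fell, 13.1% in either direction, which sets the 14.4% of the set called near the background. The median log2 change was -0.05 for the set and 0.00 over all genes tested. WT mRNA levels entered the rule, as its minimum and as the divisor of the ratio, so counts against WT are not free of the choice. By type, 8 of 169 coding transcripts rose and 16 fell, where 13.9% of all coding genes tested were called, and 2 of 29 long non-coding RNAs rose and 4 fell, where 8.29% of that class were. Of the 11 small RNAs 0 were called, where 4.33% of all small RNAs tested were. These are bulk libraries, in which a change in all cells and a change in some of them cannot be told apart. Without RNA-seq replicate 2 of 4EHP-null cells, the library that stood apart in small RNAs, 4 transcripts were called higher and 14 lower. The calls numbered 20 without 4EHP-null replicate 1, 16 without WT replicate 1 and 17 without WT replicate 2, against 32 with all libraries.

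The transcripts that fell in 4EHP-null cells were led by PPP2R2C, a regulatory subunit of protein phosphatase 2A. PPP2R2C had 6.57 and 4.70 CPM in 4EHP-null cells, against 14.7 and 11.6 CPM in WT cells, a log2 change of -1.26 (SE 0.17; adjusted p = 0.000637). LOC284581, a long non-coding RNA, had 1.83 and 2.95 CPM in 4EHP-null cells, against 5.20 and 5.45 CPM in WT cells, a log2 change of -1.22 (SE 0.22; adjusted p = 0.00386). The groups did not overlap for either. SMIM10L2A, LGI2 (a secreted leucine-rich repeat protein), COL27A1 (a fibrillar collagen) and MMP24 (a membrane-type matrix metalloproteinase) followed, with log2 changes of -0.92, -0.77, -0.74 and -0.74. The like-named SMIM10L2B, also in the set, was not called, with 7.41 and 7.38 CPM in 4EHP-null cells against 5.73 and 8.75 CPM in WT cells. COL27A1 had 9.42 and 8.49 CPM in 4EHP-null cells, against 14.1 and 14.96 CPM in WT cells, with an adjusted p of 0.00184. EIF4EBP2 had 306 and 300.3 CPM in 4EHP-null cells, against 421 and 414 CPM in WT cells, and fell by 0.51 on the log2 scale (SE 0.08; adjusted p = 0.00119). IRAK1, the transcript with the most counts, had 508 and 465 CPM in 4EHP-null cells, against 567 and 629.9 CPM in WT cells, a log2 change of -0.35 (SE 0.09; adjusted p = 0.0221). The calls of PPP2R2C, LOC284581, COL27A1 and EIF4EBP2 held in every setting tried, while that of IRAK1 was lost without any 1 of the 4 libraries compared, that of SMIM10L2A without 4EHP-null replicate 1 or WT replicate 2, that of LGI2 without WT replicate 1 and that of MMP24 without 4EHP-null replicate 1.

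The transcripts that rose in 4EHP-null cells were led by HS6ST3, with a smaller change than that of PPP2R2C. HS6ST3, a heparan sulfate 6-O-sulfotransferase, had 10.9 and 10.2 CPM in 4EHP-null cells, against 6.09 and 5.37 CPM in WT cells, a log2 change of 0.84 (SE 0.15; adjusted p = 0.00318). NEAT1 had 95.4 and 87.3 CPM in 4EHP-null cells, against 69.3 and 54.2 CPM in WT cells, a log2 change of 0.52 (SE 0.11; adjusted p = 0.00755). The 4EHP-null libraries were above both WT libraries for HS6ST3 and for NEAT1, although the WT libraries of NEAT1 were themselves far apart. LYPD6 (a Ly6-family protein), RIMS3 (a presynaptic protein), PDE4A (a cyclic AMP phosphodiesterase) and the long non-coding RNA THRIL rose by log2 values of 0.49, 0.48, 0.46 and 0.46. The call of HS6ST3 held in every setting tried. Those of LYPD6 and PDE4A were lost without any 1 of the 4 libraries compared, that of NEAT1 without 4EHP-null replicate 1 or WT replicate 2, that of RIMS3 without either 4EHP-null replicate or WT replicate 1, and that of THRIL without WT replicate 2.

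In GIGYF1/2-null cells against WT, mRNA rose for 15 of the 222 transcripts and fell for 20. Of all genes tested, 5.2% rose and 6.75% fell, 11.9% in either direction, against 15.8% of the set. The median log2 change was -0.01 for the set and 0.01 over all genes tested. All 15 that rose were coding, as were 765 of the 813 genes that rose over the whole table. Those that fell were 13 coding transcripts, 4 long non-coding RNAs, 2 pseudogenes and 1 small RNA, where 998 of all 1055 genes that fell were coding. The calls numbered 21 without GIGYF1/2-null RNA-seq replicate 2, 13 without WT replicate 1 and 15 without WT replicate 2, against 35 with all libraries.

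LINC00641, a long non-coding RNA, fell the furthest in GIGYF1/2-null cells, with 28.6 and 25.6 CPM there, against 49.1 and 44.98 CPM in WT cells, a log2 change of -0.85 (SE 0.12; adjusted p = 0.000576). RPS6KA2, a ribosomal S6 kinase of the ERK pathway, had 14.7 and 17.7 CPM in GIGYF1/2-null cells, against 26.6 and 28.1 CPM in WT cells, a log2 change of -0.81 (SE 0.12; adjusted p = 0.000856). LOC646762, CYP1B1 (a cytochrome P450), FNDC4 and the pseudogene GTF2IRD1P1 followed with log2 changes of -0.80, -0.66, -0.65 and -0.64. NORAD had 361 and 377 CPM in GIGYF1/2-null cells, 438 and 448 CPM in 4EHP-null cells and 493 and 463 CPM in WT cells. It fell in GIGYF1/2-null cells, at a log2 change of -0.43 (SE 0.08; adjusted p = 0.00392), and its change in 4EHP-null cells was -0.16 (SE 0.08; adjusted p = 0.22). The microRNA locus MIR632 also fell in GIGYF1/2-null cells, where it had 9.998 and 7.98 CPM, against 12.01 and 13.4 CPM in WT cells, a log2 change of -0.56 (SE 0.14; adjusted p = 0.0224). The calls of MIR632 and GTF2IRD1P1 were lost without GIGYF1/2-null replicate 2 or either WT replicate, that of NORAD without WT replicate 1 and that of FNDC4 without WT replicate 2.

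Among those that rose in GIGYF1/2-null cells, PPP2R2C again changed most, with 28.4 and 24.2 CPM there, against 14.7 and 11.6 CPM in WT cells, a log2 change of 0.94 (SE 0.15; adjusted p = 0.00183). C2orf72, PHF21B, TMEM178B, GPR160 (an orphan G protein-coupled receptor) and LSMEM2 rose by log2 values of 0.73, 0.62, 0.62, 0.60 and 0.53. GPR160 had 33.1 and 30.3 CPM in GIGYF1/2-null cells, against 19.8 and 20.4 CPM in WT cells, with an adjusted p of 0.00274. Both of its knockout libraries were above both WT libraries. The call of C2orf72 was lost without WT replicate 1, that of TMEM178B without WT replicate 2, and that of PHF21B without GIGYF1/2-null replicate 2 or either WT replicate.

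Both knockouts were compared with the same WT libraries, so a shared direction is not independent evidence. TTL (the ligase that restores the C-terminal tyrosine of tubulin), IDS (the lysosomal iduronate 2-sulfatase) and LSMEM2 were called higher against WT in both. TTL had 167 and 164 CPM in 4EHP-null cells, 177 and 196 CPM in GIGYF1/2-null cells and 137 and 130.4 CPM in WT cells, with log2 changes of 0.26 (SE 0.08; adjusted p = 0.0488) and 0.43 (SE 0.08; adjusted p = 0.00393). CYP1B1, LINC00641, MLLT6 (a chromatin protein fused to MLL in leukaemia) and SNN (the small membrane protein stannin) were called lower in both. CYP1B1 had 8.83 and 7.96 CPM in 4EHP-null cells, 8.75 and 8.87 CPM in GIGYF1/2-null cells and 13.4 and 13.4 CPM in WT cells, and its log2 change in 4EHP-null cells was -0.72 (SE 0.12; adjusted p = 0.00284). SNN had 25.6 and 24.1 CPM in 4EHP-null cells, 24.2 and 23.3 CPM in GIGYF1/2-null cells and 35.1 and 34.4 CPM in WT cells, with log2 changes of -0.53 (SE 0.10; adjusted p = 0.0051) and -0.61 (SE 0.10; adjusted p = 0.0021). Both knockouts lay below both WT libraries for CYP1B1 and SNN and above them for TTL. Of these, TTL, IDS and LSMEM2 lost their calls in 4EHP-null cells without any 1 of the 4 libraries compared, and TTL lost its call in GIGYF1/2-null cells without WT replicate 2. MLLT6 lost its call in both knockouts without either WT replicate, LINC00641 lost its call in 4EHP-null cells without 4EHP-null replicate 2 or WT replicate 1, and IDS lost its call in GIGYF1/2-null cells without GIGYF1/2-null replicate 2 or either WT replicate. PPP2R2C was called in opposite directions.

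**Figure D3:**
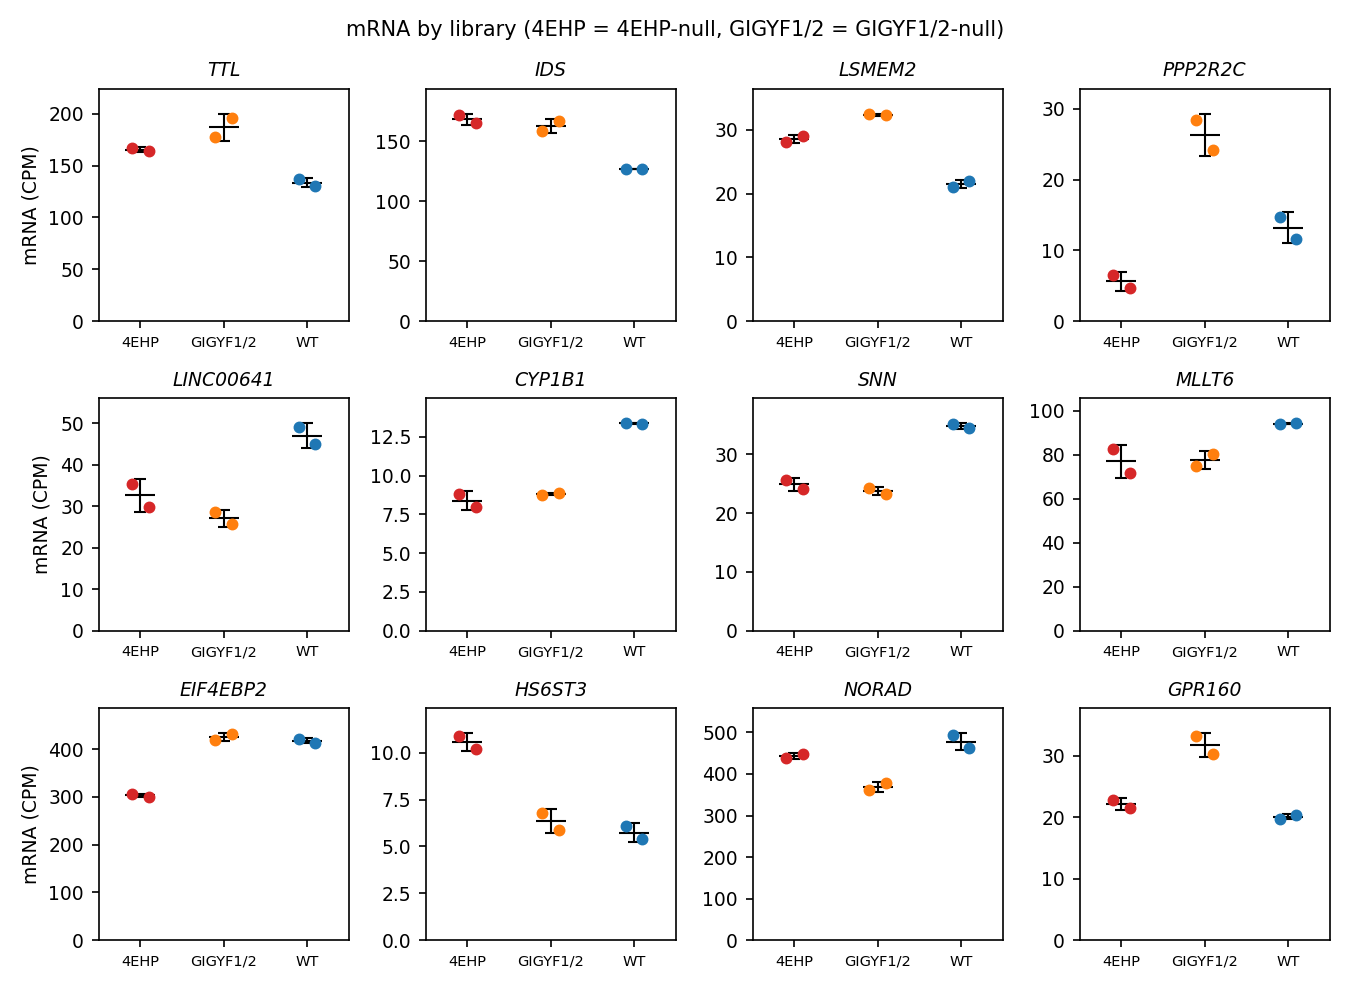
mRNA in CPM (linear axes from 0) by library for 12 transcripts in 4EHP-null, GIGYF1/2-null and WT cells. Points are libraries, and bars are the mean with its SD (n = 2). PPP2R2C is lowest in 4EHP-null cells and highest in GIGYF1/2-null cells, with WT between, while SNN and CYP1B1 are lower in both knockouts than in WT.

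Set directly against each other, the knockouts differed for more transcripts than either did from WT. Of the 222 in GIGYF1/2-null against 4EHP-null cells, 30 had more mRNA and 24 had less. Of all genes tested, 11.4% had more and 13% less, 24.4% in either direction, against 24.3% of the set. Without 4EHP-null RNA-seq replicate 1 the calls were 24 with more and 12 with less, without 4EHP-null replicate 2, the library that stood apart, they were 19 and 17, and without GIGYF1/2-null replicate 2 they were 22 and 16. PPP2R2C had 28.4 and 24.2 CPM in GIGYF1/2-null cells, against 6.57 and 4.70 CPM in 4EHP-null cells, a log2 difference of 2.20 (SE 0.17; adjusted p = 2.78e-06). LOC284581, LGI2, C2orf72, SCAMP5 (a secretory carrier membrane protein) and PARP6 followed with log2 differences of 1.22, 1.19, 1.05, 0.77 and 0.65. LGI2 had 16.5 and 15.4 CPM in GIGYF1/2-null cells, against 7.19 and 6.73 CPM in 4EHP-null cells. Lower in GIGYF1/2-null cells were LOC100507557, LOC646762, LYPD6, HS6ST3, the snoRNA SNORA100 and GTF2IRD1P1, with log2 differences of -0.89, -0.86, -0.77, -0.75, -0.72 and -0.71. SNORA100 had 20.96 and 14.1 CPM in GIGYF1/2-null cells, against 28.8 and 28.5 CPM in 4EHP-null cells, and its call was lost without either 4EHP-null replicate or GIGYF1/2-null replicate 2.

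Part of the changes ran along with neighbouring genes. For each transcript the median log2 change of its 24 nearest tested genes in RefSeq order (GRCh38.p14) was taken, and a neighbourhood was counted as shifted where that median was at least 0.2 in size. In 4EHP-null cells against WT, 2 of 10 higher and 5 of 21 lower calls with known places lay where neighbours shifted the same way. Of all 218 placed transcripts, 16 lay in a neighbourhood shifted in either direction. The share of all genes tested that lay in shifted neighbourhoods was not computed. EIF4EBP2 fell by 0.51 on the log2 scale where its neighbours had a median of -0.31, SH3PXD2A changed by -0.57 with neighbours at -0.37, and HOXA10-AS by -0.66 with neighbours at -0.43. THRIL rose by 0.46 with neighbours at 0.35. In GIGYF1/2-null cells against WT, 18 of the 218 lay in a neighbourhood shifted in either direction. Of the calls, 1 of 15 higher and 7 of 20 lower transcripts lay in one shifted the same way. Among the lower ones were the small GTPase RAP2A, at -0.56 with neighbours at -0.54, and RPS6KA2, at -0.81 with neighbours at -0.35. CLDN15, a tight junction protein, was at -0.53 with neighbours at -0.50. Between the knockouts, GIGYF1/2-null against 4EHP-null, 7 of 29 higher and 9 of 24 lower transcripts lay in one shifted the same way. Of the 218, 34 lay in one shifted in either direction. PPP2R2C, SNN, CYP1B1 and LINC00641 had neighbour medians between -0.06 and 0.07 in both comparisons with WT.

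**Figure D4:**
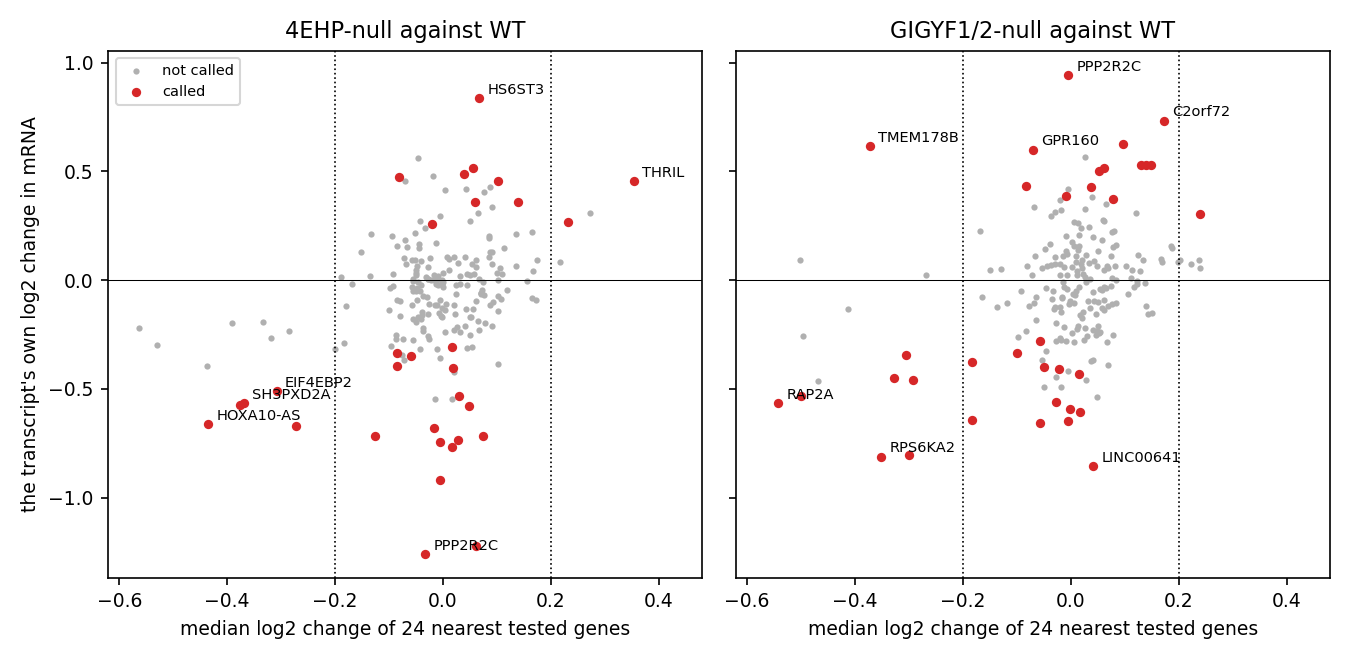
Log2 change in mRNA of each transcript with a known place (n = 218) against the median log2 change of its 24 nearest tested genes, for 4EHP-null against WT (left) and GIGYF1/2-null against WT (right). Red points are called at an adjusted p under 0.05 and dotted lines mark a neighbour median of 0.2 in size. EIF4EBP2 and RAP2A lie in lowered neighbourhoods, while PPP2R2C has a neighbour median near 0 in both panels.

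Footprints could be tested for 115 of the 222 transcripts. The other 107 fell below the filter on low counts, and the 115 are not a sample of the whole set. In 4EHP-null cells against WT, 0 rose and 2 fell, against 1.58% and 1.46% of all genes tested, 3.04% in either direction. C17orf96, a partner of Polycomb repressive complex 2 now called EPOP, had 0.765 and 1.09 CPM of footprints in 4EHP-null cells, against 3.01 and 3.68 CPM in WT cells, a log2 change of -1.83 (SE 0.42; adjusted p = 0.0398). SH3PXD2A, the podosome scaffold TKS5, had 6.73 and 6.68 CPM of footprints in 4EHP-null cells, against 13.1 and 11.1 CPM in WT cells, a log2 change of -0.83 (SE 0.20; adjusted p = 0.0442). Both also fell in mRNA. Neither footprint call was made by DESeq2, or without any 1 of the 4 Ribo-seq libraries compared. Since low WT footprints chose the transcripts, neither direction against WT is free of the choice.

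In GIGYF1/2-null cells against WT, edgeR called 0 of the 115 in footprints, against 2.09% of all genes, with 13 at an unadjusted p under 0.05 (11.3%, against 17.5% of all genes) and 0 called by DESeq2. In GIGYF1/2-null against 4EHP-null cells, which the rule did not use, 6 had more footprints and 0 fewer, against 3.98% and 6.8% of all genes, 10.8% in either direction. Of these 6, PPP2R2C, SNN and LGI2 passed the filter on low counts only with the GIGYF1/2-null libraries, where they were high. Their differences, and the count of 6 against 0, are therefore not free of that filter. PPP2R2C had 2.04 and 1.57 CPM of footprints in GIGYF1/2-null cells, against 0.153 and 0.273 CPM in 4EHP-null cells, a log2 difference of 2.92 (SE 0.64; adjusted p = 0.0139) from 17 and 17 counts against 1 and 2. SNN had 1.56 and 1.94 CPM of footprints in GIGYF1/2-null cells, against 0.306 and 0.273 CPM in 4EHP-null cells. These were 13 and 21 counts against 2 and 2, and the 4EHP-null levels are within what a count of 0 allows. The log2 difference was 2.51 (SE 0.63; adjusted p = 0.0273). SNN mRNA was at 24.2 and 23.3 CPM in GIGYF1/2-null cells and 25.6 and 24.1 CPM in 4EHP-null cells. EIF4EBP2, with more footprints than the others, had 27 and 31.9 CPM in GIGYF1/2-null cells, against 16.8 and 21.5 CPM in 4EHP-null cells, a log2 difference of 0.57 (SE 0.16; adjusted p = 0.0386). SH3PXD2A, C17orf96 and LGI2 had log2 differences of 0.87, 1.70 and 2.08. C17orf96 had 19 and 43 counts in GIGYF1/2-null cells against 5 and 8 in 4EHP-null cells, and LGI2 had 17 and 20 against 1 and 5. None of these 6 was called by DESeq2, or without either 4EHP-null Ribo-seq replicate, and without GIGYF1/2-null Ribo-seq replicate 2 there were 2 calls in all.

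**Figure D5:**
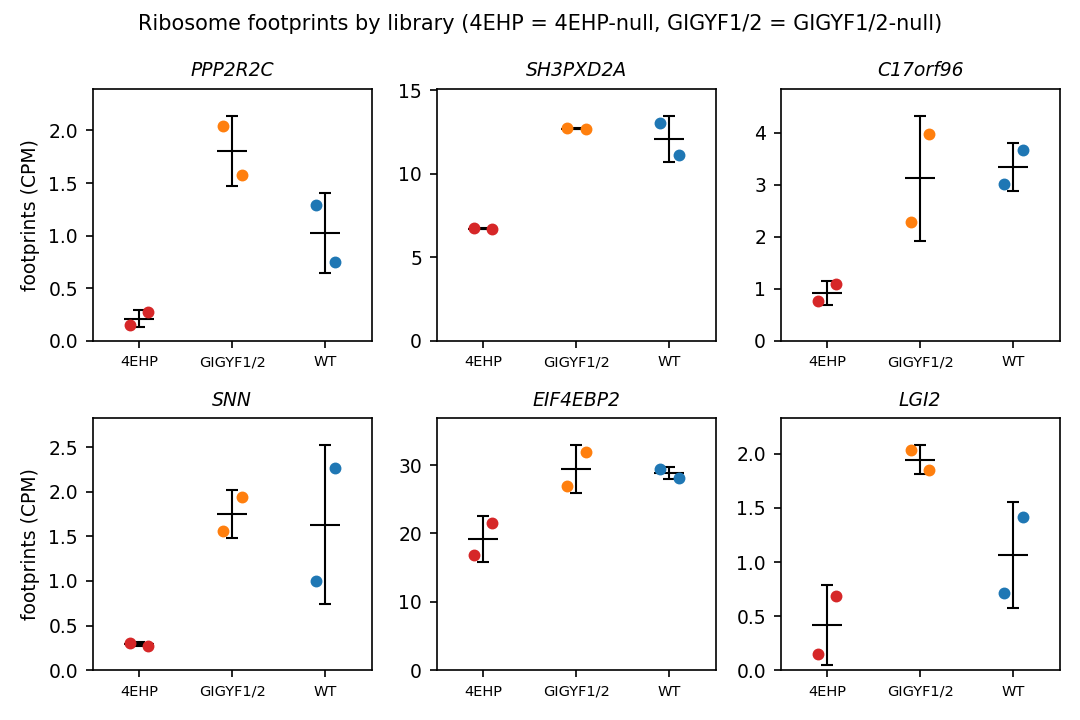
Ribosome footprints in CPM (linear axes from 0) by library for the 6 transcripts with more footprints in GIGYF1/2-null than in 4EHP-null cells. Points are libraries, and bars are the mean with its SD (n = 2). Both 4EHP-null libraries lie below both GIGYF1/2-null libraries in all 6 panels, but these same libraries picked the 6 transcripts. The WT libraries are spread widely for SNN and LGI2.

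No change in translation efficiency (the footprint change beyond the mRNA change, tested as an interaction over all 12 libraries) was called for the 115 transcripts. With edgeR, 0 were called in 4EHP-null against WT, in GIGYF1/2-null against WT and in GIGYF1/2-null against 4EHP-null cells, against 0.0981%, 0.0453% and 0.181% of all genes tested. At an unadjusted p under 0.05 there were 11, 8 and 12 (9.57%, 6.96% and 10.4%), against 7.19%, 4.29% and 6.25% of all genes tested, and DESeq2 called 0 in each. The WT ratio chose the transcripts, so changes in translation efficiency against WT are not free of the choice. OIP5-AS1, a long non-coding RNA, had 7.34 and 6.41 CPM of footprints in 4EHP-null cells, 6.12 and 7.30 CPM in GIGYF1/2-null cells and 4.02 and 4.15 CPM in WT cells. Its mRNA was at 55.4 and 56.99 CPM in 4EHP-null cells, 53.7 and 55.1 CPM in GIGYF1/2-null cells and 55.3 and 51.7 CPM in WT cells. All 4 knockout libraries were above both WT libraries in footprints, and its log2 changes in translation efficiency were 0.76 (SE 0.21; adjusted p = 0.317) and 0.73 (SE 0.21; adjusted p = 0.589). SNN had the smallest unadjusted p between the knockouts, at a log2 difference of 2.61 (SE 0.57; adjusted p = 0.116) in translation efficiency. Its footprint counts were only 2 and 2 in 4EHP-null cells, and SNN passed the filter on low counts only with the GIGYF1/2-null libraries. It was high in those libraries, so its place is not free of the filter. With 2 libraries per group and few footprints, these values were not shown to change, nor were they shown to stay the same.

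The authors' deposited table of mRNA comparisons lists 182 of the 222 transcripts. At an adjusted p under 0.05 the authors' deposited table has 11 higher and 22 lower in 4EHP-null against WT, against 19.9% of its genes called in either direction, and 18 higher and 18 lower in GIGYF1/2-null against WT, against 17.6%. The authors' deposited tables of footprints and of translation efficiency list 21 of the 222 and call 0 of them in either knockout. The shares of all genes called in the authors' deposited tables are 6.02% for footprints in 4EHP-null against WT and 5.84% in GIGYF1/2-null against WT, and 0.507% and 0.152% for translation efficiency.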

How the data were processed

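The deposited files hold whole-number counts per gene for 12 libraries, 2 per genotype and assay, and the authors' deposited tables of log2 fold changes and p-values. Bowtie2, TopHat2, edgeR and the build hg19 are named in the submitters' processing notes; no source used here gives the annotation, the strand setting or the tool that counted reads. RNA came from a TruSeq kit, per the labels' protocols.

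From the deposited counts, CPM used each column's total. edgeR 4.0.16 (R 4.3.3, limma 3.58.1; filterByExpr, TMM, quasi-likelihood F-test) was fitted on all genes, separately for RNA-seq and Ribo-seq, over both assays for translation efficiency, and over the 8 knockout libraries for footprints against mRNA. Calls are Benjamini-Hochberg adjusted p under 0.05; each SE is the log2 change over the root of F. The scripts were tested on simulated data. Labels do not say that replicates were separate cultures, so p-values measure only the spread between libraries.

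The transcripts and gene lists were chosen with earlier results of these data known. Named are EIF4E2, GIGYF1 and GIGYF2; the 12 transcripts with the highest WT CPM; the 6 up and 6 down with the largest called mRNA changes per comparison; up to 4 each for footprints and translation efficiency; 3 on each side of each threshold; up to 6 per list; and the 4 highest ratios in knockouts. Others named (for their types, hosts, neighbours, zero counts or shared calls) were picked after their values were seen. Symbols were matched to RefSeq GRCh38.p14 by current or older name, and no hg19 coordinates were used. Alternatives were other scalings, filters and thresholds, DESeq2 1.42.0, a replicate block and each library left out; added after seeing the data were identical copies taken once and transcripts in shifted neighbourhoods left out. Figures used matplotlib 3.10.9.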

Additional observations from a re-analysis of the deposited data

Results flagged for a closer look

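PPP2R2C stood out because its mRNA was called in opposite directions in the knockouts. It had 28.4 and 24.2 CPM in GIGYF1/2-null cells, against 6.57 and 4.70 CPM in 4EHP-null cells, and the difference between them was itself tested with edgeR, at a log2 value of 2.20 (SE 0.17; adjusted p = 2.78e-06). WT cells had 14.7 and 11.6 CPM. The direct difference kept its call under every setting tried.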

How the results depend on the processing

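The size of the set follows its thresholds: a ratio of at most 0.05 left 93 transcripts and one of at most 0.2 gave 776, while a level of at least 10 CPM gave 157, one of at least 2 CPM 333 and TMM-scaled library sizes 234; with 1 WT replicate the rule gave 239 to 242. Leaving out 1 library gave 16 to 34 calls in 4EHP-null against WT, 13 to 32 in GIGYF1/2-null against WT and 36 to 54 in GIGYF1/2-null against 4EHP-null. In 4EHP-null against WT the count was 20 and 18 without 4EHP-null RNA-seq replicate 1 and 2, and 16 and 17 without WT RNA-seq replicate 1 and 2. For GIGYF1/2-null against WT it was 21 without GIGYF1/2-null RNA-seq replicate 2, and 13 and 15 without WT RNA-seq replicate 1 and 2. Between the knockouts it was 36 without 4EHP-null RNA-seq replicate 1 or 2. Calls kept in every setting numbered 11 of 32, 9 of 35 and 25 of 54, and no named transcript changed direction. DESeq2 gave 32, 31 and 51, no filter 44, 45 and 68, and leaving out transcripts in shifted neighbourhoods 25, 26 and 36.

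Footprint calls moved with most settings. In 4EHP-null against WT there were 2 in the analysis reported, 1 with RLE size factors, 9 with no filter, 0 with a filter of 50 counts in 2 libraries, 0 with DESeq2 and 0 to 3 with a library left out (0 without 4EHP-null or WT Ribo-seq replicate 1 or 2). For GIGYF1/2-null against WT there were 0, 2 with no filter, and 0 to 0 with a library left out. Between the knockouts (GIGYF1/2-null against 4EHP-null) there were 6, 11 with no filter, 2 with the filter of 50 counts, 0 with DESeq2 and 0 to 5 with a library left out: 0 without 4EHP-null Ribo-seq replicate 1, 1 without replicate 2, and 2 without GIGYF1/2-null replicate 2. The cause was not tested. Translation efficiency stayed at 0 calls in every setting run. The test of footprints against mRNA within the knockouts was not fitted without a filter on low counts.

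Replicate numbers were shared between genotypes. Deviations of same-numbered libraries correlated at 0.18 to 0.46 over genes, but with 2 numbers and no shared day in the labels they were not taken as pairs. With the replicate block, mRNA calls numbered 49, 51 and 83 and footprint calls 11, 3 and 12, in 4EHP-null against WT, GIGYF1/2-null against WT and GIGYF1/2-null against 4EHP-null. Ribo-seq depth limits the ratios: 88 of the 222 transcripts had fewer than 10 WT footprint counts.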
